A study of Homo sapiens with 6 samples.

Results

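The genes described here are 10 cytosolic and endosomal nucleic acid sensors, adaptors and their partners: DDX58, IFIH1, DHX58, TLR3, IFI16, TREX1, MAVS, TMEM173, TBK1 and IRF3. They were taken by name from a deposited table of 51537 genes, and all 10 were found. The table covers 6 poly(A) RNA libraries of H3122, a human lung adenocarcinoma cell line known for an EML4-ALK fusion. 3 libraries came from control H3122 cells, and 3 from H3122 cells made resistant to crizotinib, a drug that blocks the kinases ALK and MET, by exposure to rising doses from 0.1 to 10 µM. Every library is of the same parental line, and the labels name no other genotype or agent. They do not say whether the resistant cells are a clone, whether crizotinib was present at harvest, or whether replicates were grown apart. The p-values therefore reflect the spread among these libraries, which may be technical.

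In most cells, foreign or misplaced nucleic acid is recognised by a small set of proteins. RIG-I (DDX58), MDA5 (IFIH1) and LGP2 (DHX58) are RNA helicases of the cytosol, and RIG-I and MDA5 signal through MAVS, an adaptor on the mitochondrial outer membrane. DNA in the cytosol is read by cGAS, with IFI16 as a further DNA-binding sensor, and the signal passes through STING (TMEM173) on the endoplasmic reticulum, while TREX1 degrades cytosolic DNA. Both adaptors recruit the kinase TBK1, which phosphorylates the transcription factor IRF3, and IRF3 then turns on interferon genes. Several of the sensors are themselves interferon-stimulated genes, so their mRNA is known to rise when cells see interferon.

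The values are TPM, a length-scaled abundance that sums to 1000000 in each library. Levels of different genes can be compared only as far as the gene lengths behind the TPM hold. A gene that reached 1 TPM in 3 or more libraries was tested with limma on log2(TPM + 1). Log2 changes are resistant minus control on that scale, given with their standard error (SE), and a gene was called at an adjusted p below 0.05. Of 16077 genes tested, 48.6% were called, in about equal numbers higher and lower in resistant libraries, with a median log2 change of -0.004. Each library held an estimated 29856918 to 36695600 reads. Libraries of one group resembled each other (Pearson's r 0.986 to 0.989 over genes, which are not replicates) more than those of different groups (0.957 to 0.960). Of 8 markers of lung adenocarcinoma epithelium, KRT7, KRT8, KRT18, KRT19, EPCAM and CDH1 were at 177 TPM or more in all 6 libraries, whereas NKX2-1, a lung lineage factor, stayed at or below 0.751 TPM and NAPSA at or below 2.05 TPM. In bulk RNA, more cells that express a gene and more RNA per cell cannot be told apart.

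These genes did not all move the same way. Of 9 tested genes, 6 were called higher in resistant libraries (DDX58, IFIH1, DHX58, TLR3, IFI16 and TMEM173), where 24.0% of all tested genes were. MAVS was called lower, as were 24.7% of all tested genes, and TBK1 and IRF3 did not pass the test. TREX1 was listed at 0 and was not tested. The median log2 change of the 9 genes was 0.63, beside -0.004 over the 16077 genes. The groups did not overlap for 7 of the 9 genes; over all tested genes this held for 57.9%. IFI16 passed the filter on low values only through the resistant libraries, where it was high, so it had to differ.

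**Figure D1:**
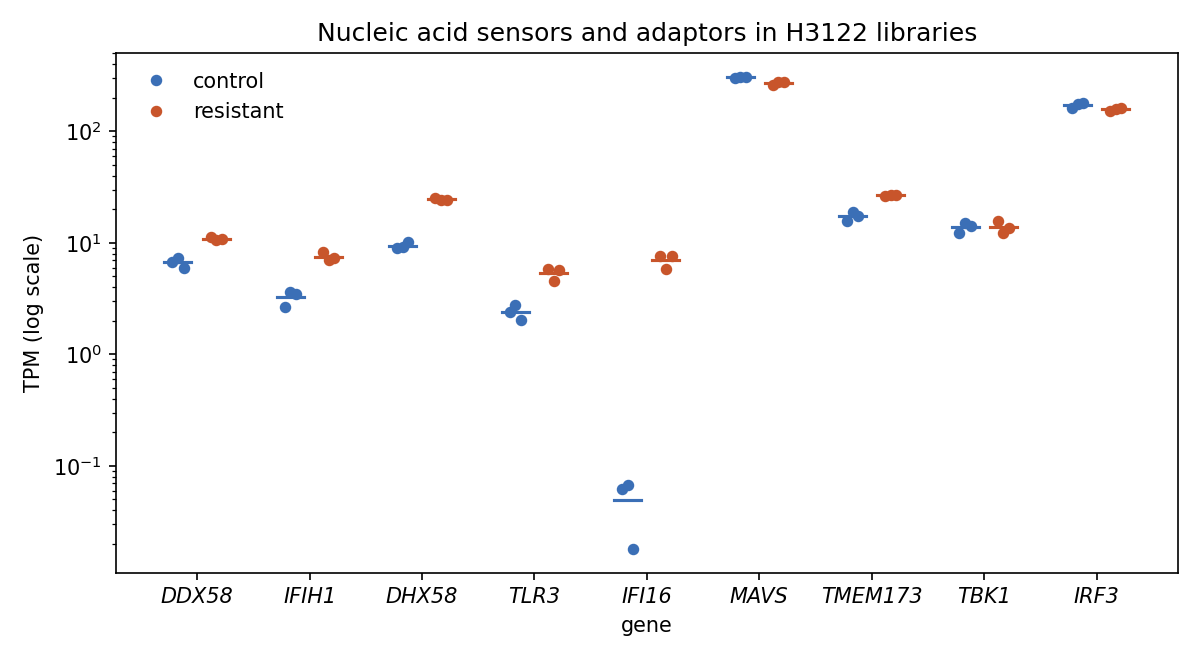
TPM of 9 genes (log axis) in 3 control and 3 resistant libraries; points are libraries and short lines are group means. TREX1, listed at 0, is left out. MAVS and IRF3 lie above 150 TPM in all 6 libraries, and IFI16 moves from below 0.07 TPM to above 5.7 TPM.

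All 3 RIG-I-like receptors rose. DHX58 encodes LGP2, which lacks the signalling domains of its relatives and modulates them. DHX58 (ENSG00000108771, chromosome 17, 42101404 to 42112733; GENCODE 29 on GRCh38, here and below) was at 8.93, 9.21 and 10.2 TPM in control libraries 1 to 3 and at 25.2, 24.4 and 24.3 TPM in resistant libraries 1 to 3. The resistant libraries lay close together and well above every control library. The means were 9.46 ± 0.686 and 24.6 ± 0.491 TPM (SD, n = 3 each), a log2 change of 1.30 ± 0.07 (SE, adjusted p = 9.36e-06).

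IFIH1 encodes MDA5, the sensor of long double-stranded RNA. IFIH1 (ENSG00000115267, chromosome 2, 162267079 to 162318703) was at 2.67, 3.62 and 3.51 TPM in control and 8.31, 6.98 and 7.29 TPM in resistant libraries. All resistant libraries were above all control libraries, with control replicate 1 the lowest. The log2 change was 1.0 ± 0.12 (SE, adjusted p = 4.06e-04).

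DDX58 encodes RIG-I, which reads short RNA ends with a triphosphate. DDX58 (ENSG00000107201, chromosome 9, 32455705 to 32526324) was at 6.78, 7.36 and 5.91 TPM in control and 11.2, 10.5 and 10.8 TPM in resistant libraries. The groups did not overlap, and the log2 change of 0.63 ± 0.09 (SE, adjusted p = 8.89e-04) was smaller than that of the other RIG-I-like receptors in these libraries; this difference between genes was not tested.

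The mix of the RIG-I-like receptors shifted with these unequal changes. Their summed level was 18.4, 20.2 and 19.7 TPM in control and 44.7, 41.9 and 42.4 TPM in resistant libraries. DHX58 made up 48.6%, 45.6% and 52.1% of that sum in control and 56.4%, 58.2% and 57.4% in resistant libraries, while DDX58 made up 30.0% to 36.9% and 25.0% to 25.4%. The share of DHX58 was higher and that of DDX58 lower in every resistant library than in any control library. The share of IFIH1 overlapped, at 14.5% to 17.9% and 16.7% to 18.6%. These sums and shares were chosen after the values were seen and are a description with no test.

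**Figure D2:**
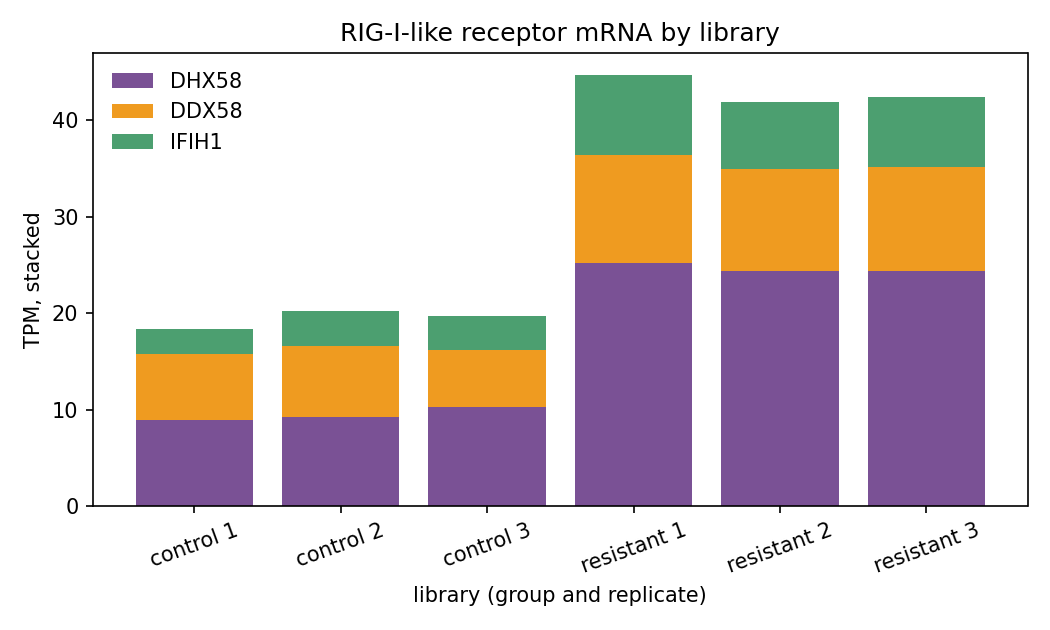
Stacked TPM of DHX58, DDX58 and IFIH1 in each of the 6 libraries (linear axis from 0). The control stacks reach 18.4 to 20.2 TPM and the resistant stacks 41.9 to 44.7 TPM, and the DHX58 segment grows most.

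TLR3 is the endosomal receptor of double-stranded RNA and signals through TICAM1 (TRIF) and not through MAVS. TLR3 (ENSG00000164342, chromosome 4, 186069152 to 186088069) was at 2.40, 2.76 and 2.05 TPM in control and 5.89, 4.58 and 5.71 TPM in resistant libraries. The groups did not overlap, with resistant replicate 2 the lowest of its group. The log2 change was 0.91 ± 0.13 (SE, adjusted p = 9.59e-04). The reads behind these values were estimated at 81 to 208 per library from the gene's own smallest step, and at 145 to 372 with the GENCODE 29 exon length.

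Promoter windows of the sensors and adaptors were searched for motifs as a description, with no test. The windows run from 250 bases before to 50 bases after a gene's start and come from RefSeq on GRCh38.p14. Of the 10 genes, 7 had a window (DDX58, IFIH1, TLR3, IFI16, TREX1, MAVS and TBK1), and DHX58, TMEM173 and IRF3 had none in the table used. Motifs were searched on both strands: the core of the interferon-stimulated response element (GAAA, any 2 bases, GAAA) and a core of NF-kB sites (GGGA, any 2 bases, TTCC). The interferon motif occurred in 3.57% and the NF-kB motif in 1.61% of 35116 windows of all genes. A match describes letters and does not show a bound site. The windows of the 3 genes with a match are shown 5′ to 3′ on the strand of the gene, in lower case with matches in capitals.
IFIH1, chr2:162318635-162318934, minus strand: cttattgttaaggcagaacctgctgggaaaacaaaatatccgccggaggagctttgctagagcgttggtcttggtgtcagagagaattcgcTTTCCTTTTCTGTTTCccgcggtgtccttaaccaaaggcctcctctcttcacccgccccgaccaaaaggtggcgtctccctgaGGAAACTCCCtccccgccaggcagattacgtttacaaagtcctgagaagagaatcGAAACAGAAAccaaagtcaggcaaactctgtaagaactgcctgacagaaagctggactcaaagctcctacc
TLR3, chr4:186068906-186069205, plus strand: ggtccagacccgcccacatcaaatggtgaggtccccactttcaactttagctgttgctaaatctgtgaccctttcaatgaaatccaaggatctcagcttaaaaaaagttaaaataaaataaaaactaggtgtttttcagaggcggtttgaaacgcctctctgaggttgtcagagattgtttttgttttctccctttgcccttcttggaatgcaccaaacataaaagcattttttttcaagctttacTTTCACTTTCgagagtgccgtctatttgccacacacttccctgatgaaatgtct
DDX58, chr9:32526147-32526446, minus strand: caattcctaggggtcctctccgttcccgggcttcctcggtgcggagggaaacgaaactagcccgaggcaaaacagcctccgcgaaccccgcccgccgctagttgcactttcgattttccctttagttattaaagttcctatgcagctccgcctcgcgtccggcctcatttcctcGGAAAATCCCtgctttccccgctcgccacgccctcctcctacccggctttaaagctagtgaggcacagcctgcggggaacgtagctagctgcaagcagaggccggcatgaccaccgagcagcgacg

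IFIH1 held 3 matches to the interferon motif, at bases -159 to -150, -153 to -144 and -21 to -12 from its start, of which the first and second overlap. TLR3 held 1, from -4 to 6, where base 1 is the start itself. IFIH1 and DDX58 each held 1 match to the NF-kB motif, in both genes at bases -76 to -67. The windows of IFI16 (of which there are 2), TREX1, MAVS and TBK1 held neither motif in this exact form. Looser forms were not searched in any window.

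IFI16 showed the largest change of the 9 tested genes. It encodes a DNA-binding protein of the HIN-200 family that is found in nucleus and cytosol and can feed into the STING route. IFI16 (ENSG00000163565, chromosome 1, 158999968 to 159055155) was at 0.0623, 0.0669 and 0.0180 TPM in control and 7.59, 5.78 and 7.60 TPM in resistant libraries. Control libraries were near the floor, with an estimated 3, 3 and 1 reads, against 378, 278 and 390 reads in resistant libraries. The log2 change was 2.92 ± 0.14 (SE, adjusted p = 8.16e-06), a value that the pseudocount holds down: with 0.1 in place of 1 it was 5.58. From the summed reads the ratio of resistant to control was 149, with an exact (Clopper-Pearson) 95% interval of 72.0 to 371 that covers counting error only. The HIN-200 relatives AIM2, PYHIN1 and MNDA, named after their values were seen, were listed at 0 in all 6 libraries.

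cGAS, written MB21D1 in the table, is the main cytosolic DNA sensor and did not pass the test. MB21D1 was at 17.1, 17.2 and 16.3 TPM in control and 17.9, 18.7 and 19.1 TPM in resistant libraries, a log2 change of 0.13 ± 0.06 (SE, adjusted p = 0.0925). It is named here for its role, after its values were seen.

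TREX1, the exonuclease that clears cytosolic DNA, was listed at 0 in all 6 libraries. TREX1 (ENSG00000213689, chromosome 3, 48465811 to 48467645) lies wholly inside its neighbour in the annotation: 100% of its exon bases overlap exons of other genes on the same strand, chiefly ATRIP, which is named for this overlap after its values were seen. Of 183 protein-coding genes with that arrangement, 79.2% were listed at 0 in every library, against 13.3% of the other 19131 protein-coding genes. ATRIP had a mean of 10.2 ± 0.544 TPM in the control group and of 11.1 ± 0.694 TPM in the resistant group (SD, n = 3 each; adjusted p = 0.242). How the authors' counting assigned reads shared by the 2 genes is not given in the sources used here, so the 0 is not read as absence of TREX1 mRNA.

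The adaptors moved in opposite directions. TMEM173 encodes STING, the adaptor for cGAS and its messenger. TMEM173 (ENSG00000184584, chromosome 5, 139475534 to 139482935) was at 15.8, 18.8 and 17.5 TPM in control and 26.4, 27.0 and 27.2 TPM in resistant libraries. The resistant libraries were tightly grouped above all controls, with a log2 change of 0.60 ± 0.07 (SE, adjusted p = 3.26e-04).

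MAVS (ENSG00000088888, chromosome 20, 3846799 to 3876123), the adaptor of RIG-I and MDA5, had the highest TPM of the 10 genes in both groups. It was at 303, 308.8 and 309.8 TPM in control and 262, 277 and 275 TPM in resistant libraries. All resistant libraries lay below all controls, and MAVS fell by 0.18 on the log2 scale (SE 0.04, adjusted p = 0.00685). The level of MAVS per summed TPM of the 3 RIG-I-like receptors was 16.5, 15.3 and 15.8 in control and 5.85, 6.62 and 6.49 in resistant libraries, a ratio chosen after the values were seen.

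Neither the kinase nor the transcription factor passed the test. TBK1 (ENSG00000183735, chromosome 12, 64451880 to 64502108) was at 12.2, 15.2 and 14.2 TPM in control and 15.7, 12.4 and 13.5 TPM in resistant libraries. The groups overlapped throughout, and the log2 change of 0.00 had a 95% interval of -0.25 to 0.25 (adjusted p = 0.996). IRF3 (ENSG00000126456, chromosome 19, 49659569 to 49665875) was at 161, 174 and 179 TPM in control and 152, 160.0 and 162 TPM in resistant libraries. Only control replicate 1 lay within the range of the resistant libraries. The log2 change of IRF3 was -0.12 with a 95% interval of -0.24 to 0.01 (adjusted p = 0.104). Without control replicate 1 it was -0.16 and passed (adjusted p = 0.0266). Of the exon bases of IRF3, 19.3% overlap exons on the opposite strand, chiefly of BCL2L12, and of those of TBK1 14.7%; whether counting used strand is not given in the sources used here.

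**Figure D3:**
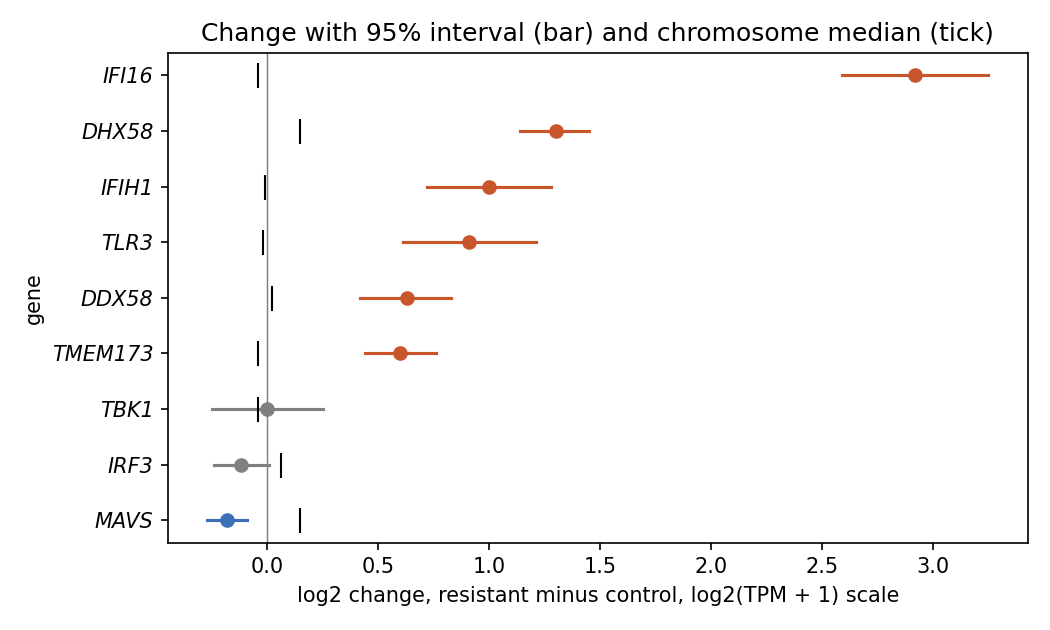
Log2 change, resistant minus control, of 9 genes (points) with 95% intervals (bars; orange called higher, blue called lower, grey not called); black ticks are the median change of tested genes on the same chromosome. The 6 sensors and adaptors called higher lie at 0.60 to 2.92, and the medians of their chromosomes at -0.04 to 0.15. The part of the chromosome in these changes was not tested.

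The 9 tested genes lie on 9 chromosomes. The median log2 change of tested genes on those chromosomes ran from -0.04 on chromosomes 1, 5 and 12 to 0.15 on chromosomes 17 and 20. MAVS fell on chromosome 20, whose 463 tested genes had a median of 0.15. DHX58 rose by 1.30 on chromosome 17, which had the same median. The part of the chromosome in the changes of the 9 genes was not tested.

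The order of the levels, by the deposited TPM and so by the gene lengths behind it, changed. In control libraries it was MAVS (307 TPM), IRF3 (172), TMEM173 (17.4), TBK1 (13.8), DHX58 (9.46), DDX58 (6.68), IFIH1 (3.27), TLR3 (2.41) and IFI16 (0.0491). Of these neighbours the ranges of only IFIH1 and TLR3 overlapped. In resistant libraries DHX58 (24.6 TPM) stood above TBK1 (13.9 TPM) and close below TMEM173 (26.8 TPM), with no overlap between them. IFIH1 (7.53 TPM), IFI16 (6.99 TPM) and TLR3 (5.39 TPM) came last, and the range of IFI16 overlapped both others.

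Among 18 other listed genes of RNA sensing 15 were tested. Of these 5 rose and 10 did not pass, with a median log2 change of 0.09, beside 24.0% of all tested genes called higher. DDX60, a helicase linked to RIG-I signalling, rose from 3.80 ± 0.704 to 8.28 ± 1.92 TPM (SD, n = 3 each; log2 0.94 ± 0.17 SE, adjusted p = 0.00261). RNF135, a ubiquitin ligase that activates RIG-I, rose from 10.3 to 14.3 TPM. SKIV2L, an RNA exosome helicase, rose from 50.9 to 65.1 TPM, and TICAM1, the adaptor of TLR3, from 21.4 to 26.0 TPM. The endosomal RNA receptors TLR7 and TLR8, named after their values were seen, stayed at or below 0.0204 TPM.

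Of 26 listed genes of DNA sensing and clearance 20 were tested, and 7 rose, 5 fell and 8 did not pass, with a median log2 change of 0.09. Over all tested genes 24.0% were called higher and 24.7% lower, and the shares in this list were not tested against these. ENPP1 and RNASEH2A, 2 of the 7, both named after their values were seen, passed the filter only through the resistant libraries and had to differ; without resistant replicate 3, 4 of the 20 were called higher. Subunits of RNase H2, which removes RNA from DNA hybrids, went both ways: RNASEH2C rose from 45.6 ± 2.01 to 76.1 ± 5.03 TPM and RNASEH2B fell from 21.7 ± 1.46 to 15.3 ± 0.289 TPM (SD, n = 3 each). RNASEH2A, the catalytic subunit, had means of 0.789 and 1.84 TPM (log2 0.65 ± 0.17 SE, adjusted p = 0.0141). SAMHD1, which hydrolyses deoxynucleotides, rose from 15.7 to 21.5 TPM. TRIM56, a ubiquitin ligase linked to STING, fell from 110.7 to 82.8 TPM. RNASEH2B (log2 -0.47) lies on chromosome 13 and TRIM56 (log2 -0.42) on chromosome 7, where the median log2 changes of tested genes were -0.47 and -0.29; the part of the chromosome in these changes was not tested.

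All 20 listed kinases, ubiquitin enzymes and transcription factors downstream of the adaptors were tested. Of these 5 rose, 9 fell and 6 did not pass, with a median log2 change of -0.13, beside 24.0% of all tested genes called higher and 24.7% lower. IRF7, an interferon-induced relative of IRF3, was at 14.4, 12.3 and 12.8 TPM in control and 35.0, 35.0 and 36.4 TPM in resistant libraries (log2 1.37 ± 0.07 SE, adjusted p = 8.34e-06). TNFAIP3, which encodes the NF-kB inhibitor A20, rose from 1.08 to 5.68 TPM. TRAF3, a link between MAVS and TBK1, fell from 41.4 ± 1.84 to 24.3 ± 1.43 TPM (SD, n = 3 each), and IKBKB, a kinase of the NF-kB route, from 15.9 to 9.29 TPM. IKBKE, the close relative of TBK1, rose by 0.58 ± 0.07 (SE, adjusted p = 5.72e-04) on the log2 scale and is named after its values were seen.

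Interferon mRNA was low. Of 9 type I and type III interferon genes, 7 stayed below 1 TPM in every library. IFNB1, the type I interferon that IRF3 induces, was at 0, 0 and 0.113 TPM in control and 0.253, 0 and 0.123 TPM in resistant libraries, at most about 2 estimated reads. IFNL1, a type III interferon, was at 0.128, 0 and 0 TPM in control and 1.61, 1.03 and 1.69 TPM in resistant libraries, on an estimated 1, 0 and 0 against 13, 8 and 14 reads. IFNL1 was called higher (adjusted p = 0.00172) and had passed the filter only through the resistant libraries. IFNE, an epithelial interferon, was at 1.79, 2.16 and 1.88 TPM in control and 5.49, 3.14 and 2.94 TPM in resistant libraries (log2 0.69 ± 0.20 SE, adjusted p = 0.0232).

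Of 12 listed genes that active IRF3 is known to induce 9 were tested, and 8 rose and 1 did not pass, with a median log2 change of 1.60. Of all tested genes 24.0% were called higher. IFNB1, RSAD2 and CXCL10 were below the filter, were not tested and stayed at or below 0.470 TPM in every library. CCL5 and ISG20, 2 of the 8, passed the filter only through the resistant libraries and had to differ. The list median of 1.60 is the value of CCL5. ATF3 reached 1 TPM in only 1 control library. The list was chosen with earlier results of these data known. CCL5, ISG20, ATF3, RSAD2 and CXCL10 are named after their values were seen. Many genes of the list are also induced by interferon itself. OASL, a relative of the oligoadenylate synthetases, rose from 1.36 ± 0.399 to 20.6 ± 1.02 TPM (SD, n = 3 each), and of the IFIT proteins, which act against viral RNA, IFIT1 rose from 2.03 to 13.2 TPM and IFIT3 from 2.70 to 11.0 TPM. ISG15, a ubiquitin-like protein, rose from 70.7 ± 0.975 to 297 ± 15.6 TPM (SD, n = 3 each). The gene that did not pass was ZC3HAV1, an antiviral zinc finger protein named after its values were seen (log2 -0.15 ± 0.06 SE, adjusted p = 0.0536).

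**Figure D4:**
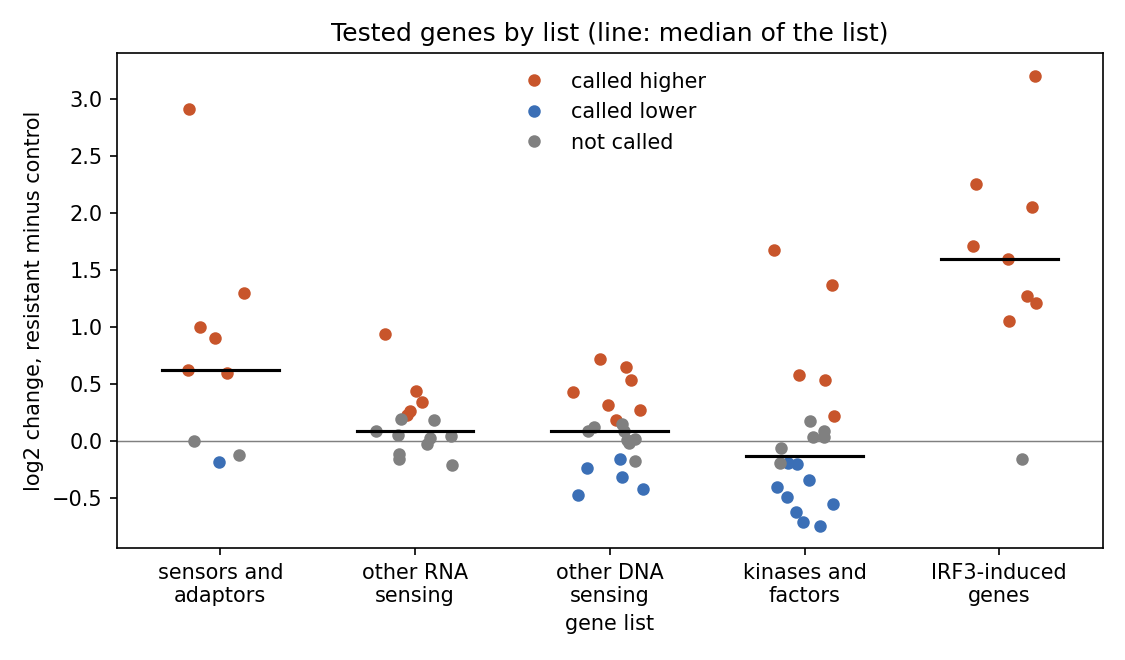
Log2 change, resistant minus control, of the tested genes of 5 lists; points are genes coloured by call and lines are list medians (0.63, 0.09, 0.09, -0.13 and 1.60 from left to right). Points of the list of IRF3-induced genes lie mostly above 1, those of kinases and factors on both sides of 0.

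Markers of other cell types were low. Of 16 blood and immune markers 12 were below 1 TPM in all 6 libraries, and CD2, MS4A1, LYZ and LILRA4 were at 0. PTPRC, the pan-leukocyte marker, stayed at or below 0.313 TPM. The 16 markers summed to between 9.71 and 10.6 TPM in a control library and between 11.7 and 13.7 TPM in a resistant one, most of it CD14 and CSF1R, of which CSF1R rose (adjusted p = 0.0141). All 8 fibroblast markers were below 1 TPM, with sums of 0.142 to 0.295 TPM in the control group and of 0.255 to 0.391 TPM in the resistant group. Of 6 endothelial markers 4 were below 1 TPM, and the sums were 8.13 to 8.94 TPM and 5.85 to 7.47 TPM. The others went opposite ways: PECAM1 rose (log2 0.99, adjusted p = 0.00128) and CDH5 fell (log2 -0.89, adjusted p = 2.19e-04). The part of such cells in the changes of the sensors was not tested.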

How the data were processed

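Poly(A) RNA of 6 libraries was sequenced after capture on beads and a stranded mRNA library kit, per the labels' protocols. The authors deposited TPM for 51537 genes, 1 column per library; HISAT2 is named per the submitters' processing notes, with version, counter, build and annotation not given in the sources used here. Columns were assigned to samples by name, and groups and replicate numbers were taken from the sample titles.

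TPM keeps no depth. Reads were estimated from TPM, GENCODE 29 exon lengths and the smallest step of each library; 67.0% to 67.7% of values above 0 came out whole within 0.01 read, so totals are estimates. For the sensors and adaptors, a step was sought per gene that made all 6 values whole within 0.02 read, or a few millionths of larger counts.

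limma 3.58.1 (R 4.3.3, statmod 1.5.0) was fitted to log2(TPM + 1) of all 16077 genes that reached 1 TPM in 3 or more libraries, with the group as the term, trend and robust moderation, two-sided tests and Benjamini-Hochberg adjustment over all of them. On 1 simulated table of 15738 tested genes with 200 changed it recovered 78.0% of log2 changes of 1 and 50.0% of changes of 0.5, and 14.1% of its calls were unchanged genes. The spread between simulated libraries was set by hand and not estimated from these data. These shares therefore hold for that setting only.

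The genes and lists were chosen with earlier results of these data known. Named genes were the 10 sensors and adaptors and, per pathway list, the 4 called genes that changed most among those averaging 5 TPM or more in either group; other names are stated as chosen after their values were seen. Interferon and marker genes were named by level. A planned comparison of protein sequences was not made here. Alternatives were a pseudocount of 0.1, no filter, a filter at 5 TPM, median-ratio scaling, the replicate number as a block, plain moderation, each library left out and, chosen after seeing the data, limma-voom on the estimated reads.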

Additional observations from a re-analysis of the deposited data

How the results depend on the processing

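Over 13 alternatives, DDX58, IFIH1, DHX58 and TMEM173 stayed called higher and MAVS lower. TLR3 stayed called higher in the 12 alternatives that could test it (with a filter at 5 TPM it was not tested). IFI16 also stayed called higher, but it passed the filter only through the resistant libraries and had to differ. The fits with a library left out kept the filter of all 6 libraries. TBK1 did not pass in any (log2 -0.09 to 0.07). IRF3, not called, passed with the replicate number as a block (log2 -0.12, adjusted p = 0.0451) and without control replicate 1, and ran from -0.16 to -0.08 with each library left out. The size for IFI16 depended on the scale: 5.58 with a pseudocount of 0.1 and 7.10 with limma-voom on estimated reads. Of the other RNA sensing genes, 8 were called with limma-voom on estimated reads (7 higher, 1 lower) in place of 5. Of the DNA sensing and clearance genes, 11 were called higher with limma-voom on estimated reads and 4 without resistant replicate 3, in place of 7. Of the IRF3-induced genes, 5 of 6 tested were called with a filter at 5 TPM in place of 8 of 9, since fewer genes were tested. Genes called in all numbered 6458 to 7475 with each library left out. Same-numbered libraries did not deviate together (r = -0.058, -0.002 and -0.016), so the numbers were not taken to pair the samples; the block gave 6856 calls in all and changed no other call among the 9 genes. With 1 to 3 estimated reads in control libraries, depth limits the level of IFI16 there.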

Other observations

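CASP1, the inflammasome protease that acts below AIM2-type DNA sensors, was under the filter on low values and was not tested. It was at 0.0591, 0.0634 and 0.0768 TPM in control and 1.37, 1.01 and 0.804 TPM in resistant libraries, so the groups did not overlap. PYCARD, the adaptor between such sensors and CASP1, rose from 28.4 to 34.8 TPM (log2 0.28 ± 0.07 SE, adjusted p = 0.0149). These genes were named after their values were seen.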
